A study of Arabidopsis thaliana with 128 samples.

Results

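The comparison described here set heat-stressed seedlings of the *poliv* mutant against heat-stressed wild-type (wt) seedlings, and asked which transcripts differed between the genotypes directly after heat. Its members were chosen by their labels alone, as the libraries of day 7 heat-stressed seedling tissue of these genotypes (HT7), and they were 8 of 128 mRNA libraries in the series, with 4 of *poliv* and 4 of wt. The *poliv* plants carried the nrpda-3 insertion (SALK_128428) in *NRPD1*, and both genotypes were Arabidopsis thaliana Col-0 with the reporter *pCLV3::H2BmCherry*, which marks shoot stem cell nuclei and which every plant of the series carried. Seedlings grown in vitro were kept at 37 °C for 1 day and harvested at day 7, and the parts above the ground, without roots, were pooled from several plants for each RNA extraction. Other sets served as reference. Control seedlings of the same age stayed at 21 °C (CT7, 3 libraries of *poliv* and 4 of wt), sorted stem cell nuclei came from heat-stressed seedlings (HS7, 8 libraries of each genotype), and heat-stressed seedlings of *ddm1* (ddm1-10, SALK_093009), which lacks a chromatin remodeler, gave 4 libraries that are compared with the same wt libraries as *poliv*. A mutant here is 1 insertion allele, so that effects of the allele and of other differences between the lines cannot be told apart.

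PolIV is a plant RNA polymerase, and *NRPD1* encodes its largest subunit. It transcribes transposable elements (TEs) and other repeats into precursors of 24-nt small RNAs, which guide new DNA methylation to matching sequences in the pathway of RNA-directed DNA methylation (RdDM), chiefly at cytosines in the CHH context. *ONSEN* (the ATCOPIA78 family) is a copia-type retrotransposon of Arabidopsis whose long terminal repeats (LTRs) hold heat shock elements, the binding sites of heat shock transcription factors (HSFs), so that heat switches its transcription on. Small heat shock proteins of the HSP20 family are chaperones that hold unfolding proteins in a soluble state.

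The promoter of *ONSEN* is shown first because the copies of this TE carried the main difference between the genotypes. The reference genome (TAIR10.1) annotates 3 *ONSEN* loci as pseudogenes flanked by direct repeats, AT1G11265 on chromosome 1, AT3G61330 on chromosome 3 and AT5G13205 on chromosome 5. The flanking repeats were 427, 427 and 438 bases long, and within each locus the 5′ and 3′ repeats were 100% identical. Each held 2 matches to TTCNNGAA, a palindromic core of the heat shock element, which lay next to each other in the same 19 bases. The 5′ LTR of AT5G13205 is printed from its start to the letters of its putative TATA box, on the minus strand at chr5:4212766-4213059, with both matches in capitals and 164 bases between the pair and the last 8 letters:
AT5G13205 LTR: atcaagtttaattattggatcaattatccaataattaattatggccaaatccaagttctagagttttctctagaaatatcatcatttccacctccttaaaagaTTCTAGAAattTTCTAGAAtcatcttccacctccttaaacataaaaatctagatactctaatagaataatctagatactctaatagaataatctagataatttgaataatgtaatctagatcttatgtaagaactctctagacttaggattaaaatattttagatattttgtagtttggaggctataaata
The annotated bodies of these loci are close to identical as well. Of all 50-base words in AT1G11265, AT3G61330 and AT5G13205, 100%, 95.0% and 88.7% occurred elsewhere in the genome. Reads of 1 copy can therefore have been counted under another, and values of single copies are less certain than their sum.

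Sequencing depth did not separate the genotypes, with sums over all features of 11287881 to 17611137 reads a library in the 8 HT7 libraries. Their values are normalized read counts, that is reads divided by a size factor of the library. By the mean correlation of log2 values, wt replicate 3 (0.929 with wt, 0.935 with *poliv*), *poliv* replicate 1 (0.931 with *poliv*, 0.941 with wt) and *poliv* replicate 2 (0.933 and 0.935) stood closer to the other genotype than to their own. The organelle genome took 11.2 to 20.5% of reads in *poliv* and 14.7 to 21.0% in wt. Among markers of tissues that should be absent, 4 of 10 root markers were at 0 in all libraries of each genotype and the list summed to 21.6 to 43.0 in *poliv* and 19.6 to 43.3 in wt, and 4 of 9 floral markers were at 0 with sums of 3.76 to 14.5 and 8.12 to 14.4. The shoot meristem markers summed to 33.8 to 54.3 in *poliv* and 27.2 to 54.4 in wt, which overlap. *NRPD1* itself had 8.93, 6.68, 5.80 and 14.1 normalized counts in *poliv* and 6.89, 1.03, 7.49 and 4.74 in wt (exact two-sided permutation test, p = 0.171, smallest p possible with 4 against 4 libraries 0.0286). A count over the whole gene does not read the insertion, so that this gene gave no check of the genotype labels.

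Differences were tested for 16601 features with limma, on the log2 scale after 1 was added to each normalized count, and a feature was called at a Benjamini-Hochberg adjusted p under 0.05 with a log2 fold change beyond 1 in either direction. The pseudocount of 1 understates the change of features with low counts. Of 16012 nuclear genes, 10 were higher (0.0625%) and 7 were lower (0.0437%) in *poliv*, whereas of 383 TEs 21 were higher (5.48%). No TE was called lower. Without the test's adjustment, 29 TEs had p under 0.05 in the lower direction, and with the same criteria edgeR called 0 and DESeq2 called 2. The 38 called features were 0.229% of all those tested, and all had ranges that did not overlap between the genotypes, against 3.02% of all tested genes that lay wholly higher in *poliv*, 3.4% wholly lower, and 13.1% and 2.61% of TEs.

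The number of calls rested on 1 wt library in particular. Without wt replicate 3, 167 genes (1.05%) were higher and 91 (0.57%) were lower, and 33 TEs (8.53%) were higher and 3 (0.775%) lower, with all 38 features still among the 295 called in all. Leaving out any other single library gave 19 to 42 calls. Each of 17 other settings called the same 13 of the 38 features, the genes *MRD1*, AT4G04223, AT4G16460 and AT5G24240 and the TEs AT1TE71045, AT1TE21210, AT2TE06405, AT2TE07550, AT3TE65015, AT4TE27915, AT4TE43250, AT4TE44990 and AT4TE49990. AT4G16540 and AT2G03020 lost the call only with all seedling libraries in 1 fit and AT2G01422 only without *poliv* replicate 3, whereas each of the other 22 lost it when 1 library was left out, for at least 2 different libraries. In bulk tissue, fewer cells of a type and less RNA per cell cannot be told apart. The sources used here do not say whether the replicates came from separate cultures. The p-values therefore speak only of the scatter among these samples, which may be technical.

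TEs took a larger part of the transcriptome in heat-stressed *poliv* than in wt seedlings, and the difference lay on *ONSEN*. All TEs together took 7.22, 6.78, 7.23 and 5.30% of the reads in the *poliv* libraries, and 1.92, 1.46, 2.83 and 2.51% in wt. Every *poliv* library was above every wt library. The means of 6.63 ± 0.913% and 2.18 ± 0.612% (SD, n = 4 each) differed by 4.45 percentage points, or 3.04 times (exact two-sided permutation test, p = 0.0286, the smallest possible).

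The 8 *ONSEN* copies alone took 6.88, 6.36, 7.004 and 5.12% of reads in *poliv* and 1.64, 1.18, 2.63 and 2.22% in wt. These values again did not overlap, and the mean share was 3.31 times higher in *poliv* (exact two-sided permutation test, p = 0.0286, the smallest possible). The other TEs took 0.338, 0.418, 0.222 and 0.174% in *poliv* and 0.276, 0.273, 0.200 and 0.290% in wt. For these the groups overlapped, with a difference of 0.0285 percentage points (exact two-sided permutation test, p = 0.686). *ONSEN* thus made up a mean of 95.7% of TE reads in *poliv* and 87.1% in wt.

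**Figure D1:**
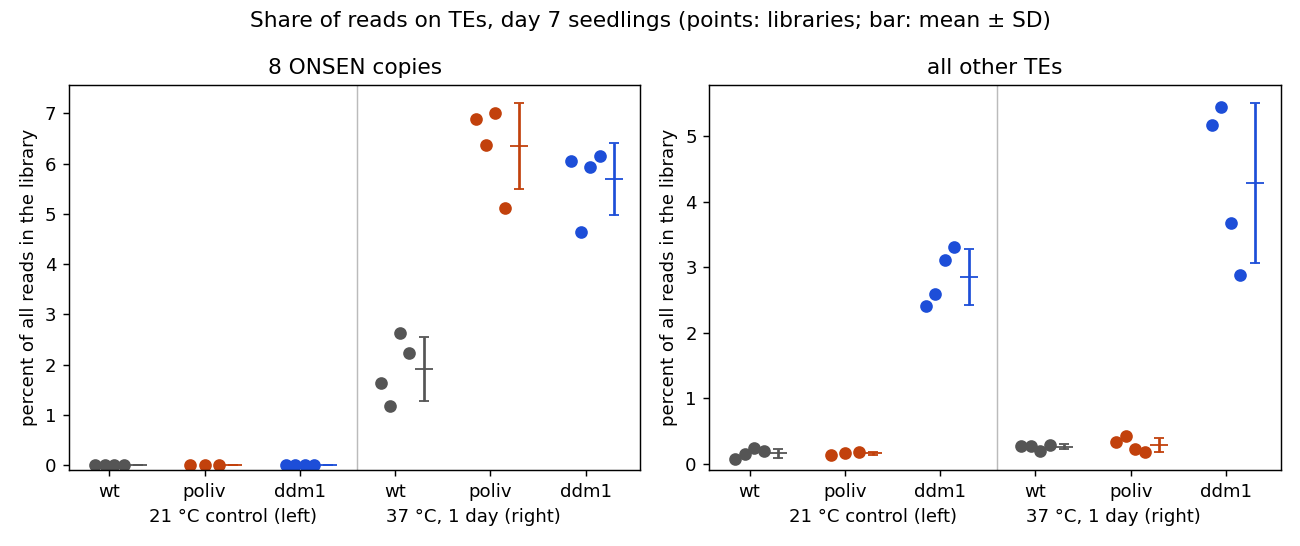
Percent of all reads of a library (y axes) on the 8 ONSEN copies (left panel) and on all other TEs (right panel) in day 7 seedlings of wt, poliv and ddm1, at 21 °C and after 1 day at 37 °C. Points are libraries and bars the mean ± SD. After heat the 4 poliv libraries lie at 5.12 to 7.004% on ONSEN, above the 4 wt libraries at 1.18 to 2.63%, whereas on other TEs poliv and wt overlap and ddm1 is above both.

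As a sum, the *ONSEN* copies had 832896, 590131, 797924 and 745483 normalized counts in *poliv* and 167531, 137629, 294568 and 240226 in wt. The mean difference on the log2 scale was 1.87, a 3.66-fold change (exact two-sided permutation test, p = 0.0286, the smallest possible). At 21 °C the sum was close to nothing in both genotypes, with means of 52.0 in *poliv* (n = 3) and 22.5 in wt (n = 4). In heat-stressed *ddm1* the sum had a mean of 808386 (n = 4), against 741609 in *poliv*. There, *ONSEN* was 57.4% of all TE reads, and the other TEs took 4.29% of reads.

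Among the copies, 5 of 8 were called higher in *poliv*, against 5.48% of all TEs. All 8 had ranges that lay wholly higher in *poliv*, against 13.1% of all TEs. The median log2 fold change was 1.91 over the 8 copies and 0.11 over all tested TEs. The copies belong to 1 family whose reads can be shared between them, so that they are not independent of each other.

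AT1TE71045 had the largest change of the copies, with 118434, 78458, 113695 and 117081 normalized counts in *poliv* and 9276, 7252, 13057 and 10478 in wt. Its lowest *poliv* library was still several times its highest wt library, and it was at 0 in all libraries at 21 °C. The log2 fold change was 3.43 ± 0.27 (SE; limma, adjusted p = 7.82e-05). In a fit of the heat effect between the genotypes the difference of the heat effects was 3.43 (limma, adjusted p = 2.11e-05), which is the same difference again because all 21 °C libraries were at 0. Of 349 TEs in that fit, 0.287% were called higher and 0.573% lower. The call was lost with edgeR, which called 0 features in this fit, against 9 with limma and 69 with DESeq2. This copy was higher by a log2 fold change of 3.55 in *poliv* stem cell nuclei after heat (limma, adjusted p = 4.31e-24), and by 2.55 in heat-stressed *ddm1* seedlings (adjusted p = 1.15e-05), where 80.6% of TEs were called higher.

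AT1TE24850 had 8322, 8031, 11110.1 and 7652 normalized counts in *poliv*, and 499, 368, 1031 and 2848 in wt. Here wt replicate 4 stood above the other wt libraries without reaching *poliv*, and the log2 fold change was 3.34 ± 0.54 (SE; limma, adjusted p = 0.043). AT5TE15240, the *ONSEN* copy on chromosome 5, where the printed LTR lies, had 154465, 115200.0, 149626 and 135294 against 23511, 18332, 48741 and 38062 (log2 fold change 2.204 ± 0.32, adjusted p = 0.0138). The wt libraries of this copy fell into a lower pair, replicates 1 and 2, and a higher pair. AT1TE12295 changed by 2.02 ± 0.29 (adjusted p = 0.0104) and AT3TE92525 by 1.56 ± 0.28 (adjusted p = 0.0467).

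The other copies did not pass the adjusted threshold. AT3TE89830 differed by 1.80 ± 0.35 (limma, adjusted p = 0.0788), AT3TE54550 by 1.44 ± 0.34 (adjusted p = 0.174) and AT1TE59755 by 1.09 ± 0.30 (adjusted p = 0.208), all with unadjusted p under 0.05. AT1TE59755, the copy with the smallest difference, had 81193 to 120435 normalized counts in *poliv* and 32783 to 71201 in wt. By edgeR 3 copies were called higher, against 4.7% of all TEs, and by DESeq2 all 8, against 11.2%, and the number called with limma was 7 without wt replicate 3 and 1 without wt replicate 1 or 2.

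**Figure D2:**
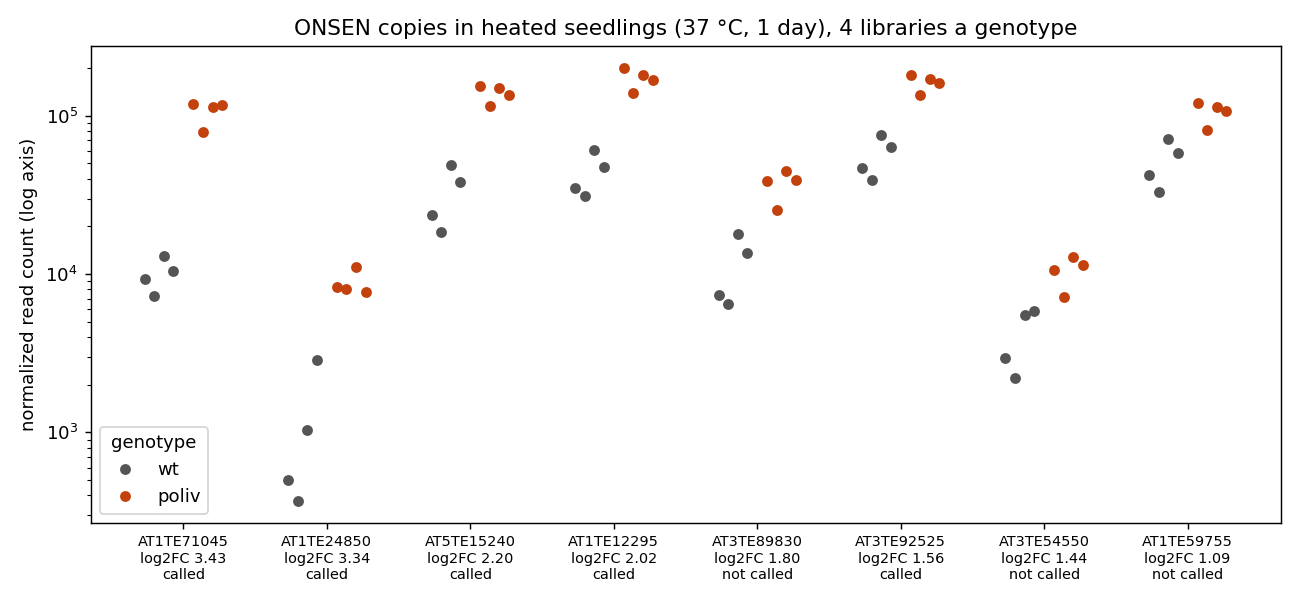
Normalized read counts (y axis, log scale) of the 8 ONSEN copies in the 4 wt and 4 poliv libraries of heat-stressed seedlings, each point a library, ordered by log2 fold change. For every copy the 4 poliv points lie above the 4 wt points, from a log2 fold change of 3.43 for AT1TE71045 to 1.09 for AT1TE59755.

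A further 16 TEs were higher in *poliv*. Apart from AT1TE51360 and AT3TE51900 these are outside the list of heat-induced TEs taken from the study. The strongest were close to silent in wt. AT3TE65015 had 307, 367, 236 and 132 normalized counts in *poliv* and 0, 2.06, 1.36 and 0 in wt (log2 fold change 7.22 ± 0.45, limma, adjusted p = 1.19e-05). AT2TE06405 had 365, 348, 206 and 139 against 0.689, 2.06, 4.08 and 2.71 (6.29 ± 0.40, adjusted p = 1.19e-05). In both, *poliv* replicate 4 was the lowest of its group and remained far above wt.

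These TEs were high in *poliv* without heat too. AT3TE65015 had 409, 500.4 and 529 normalized counts in *poliv* at 21 °C, and AT2TE06405 had 118, 134 and 115, and both were at 0 in all 4 wt libraries. Both were called there too, by log2 fold changes of 8.90 (limma, adjusted p = 7.39e-07) and 6.94 (adjusted p = 8.93e-05). In heat-stressed *ddm1* seedlings AT3TE65015 had a mean of 0.956 and AT2TE06405 of 5.99 normalized counts, near the level of wt.

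Among the called TEs, 4 were at 0 in all wt libraries after heat. Against a floor of 3 reads over the 4 libraries, AT4TE44990 was at least 115-fold higher in *poliv* (92.8, 84.6, 35.5 and 45.1), AT4TE49990 at least 66.8-fold (37.1, 34.9, 37.0 and 40.4), AT4TE43250 at least 36.2-fold (20.6, 12.6, 26.1 and 21.6) and AT1TE44720 at least 28.1-fold (29.6, 6.68, 8.70 and 17.84). The counts of AT1TE44720 were low and spread widely. AT4TE44990 was at 42.5 to 76.3 in *poliv* at 21 °C as well, whereas AT4TE43250 was at 3.11 to 6.23 there.

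AT1TE21210 had 752, 640.4, 336 and 227 normalized counts in *poliv* and 25.5, 46.3, 57.2 and 52.1 in wt (3.31 ± 0.38, limma, adjusted p = 0.0028). It also had 612, 608 and 732 in *poliv* at 21 °C. AT4TE27915 changed by 5.29 ± 0.48, AT2TE07550 by 4.58 ± 0.52, AT1TE93275 by 3.88 ± 0.57, AT5TE64600 by 3.53 ± 0.62, AT2TE04085 by 3.44 ± 0.62, AT1TE21710 by 3.20 ± 0.52 and AT1TE41800 by 1.70 ± 0.27 (SE), with adjusted p from 0.000186 to 0.0498. AT5TE64600 was at 0 in all 21 °C libraries of both genotypes and reached a mean of 714 normalized counts in heat-stressed *ddm1*, against 22.4 in *poliv*.

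Outside *ONSEN*, the heat-induced list holds TEs that the study selected for a rise with heat, on samples that include these libraries. Of its members, 2 of 46 were called higher and none lower, against 5.48% and 0% of all TEs. By edgeR these same 2 were called, against 4.7% of all TEs, and by DESeq2 4 were higher and 0 lower, against 11.2% and 0.522%. At an unadjusted p under 0.05, 11 of the 46 were higher and 2 were lower, against 19.8% and 7.57% of all TEs, and 36 had a positive log2 fold change, with a median of 0.65 against 0.11 over all TEs. AT1TE51360, a ROMANIAT5 copia element, had 412, 199.6, 381 and 359.6 normalized counts in *poliv*, and 72.3, 17.5, 71.5 and 76.5 in wt (2.64 ± 0.45, limma, adjusted p = 0.0498). AT3TE51900, of the ATCOPIA28 family, had 465, 255, 362 and 455 against 119.9, 69.98, 152 and 73.1 (1.92 ± 0.30, adjusted p = 0.0217). Both were at or near 0 at 21 °C and higher still in heat-stressed *ddm1*, with means of 824 and 634. AT5TE45065 had the most negative value of the list, a log2 fold change of -2.003, and was not called.

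Among genes, 3 of the 10 that were higher in *poliv* encode proteins of the HSP20 family, and none of these is on the list of heat shock proteins described further on. The family was picked after the calls were seen. RefSeq annotates 48 genes with an HSP20 product or domain, of which 36 were tested, 3 were called higher (8.33%, against 0.0625% of all genes) and 0 lower. At an unadjusted p under 0.05, 9 of the 36 were higher and 1 lower, against 6.97% and 6.83% of all genes. The 9 include the 3 called genes. The median log2 fold change was 0.39 over the 36 genes and 0.00 over all genes. Of these 36 genes, 15 are also on the heat shock protein list, where no gene was called. AT4G16540 had 222, 315, 499 and 289 normalized counts in *poliv* and 19.3, 42.2, 18.4 and 38.6 in wt (log2 fold change 3.47 ± 0.33, limma, adjusted p = 0.000249). AT4G16550 had 138, 232, 183 and 131 against 2.07, 1.03, 10.2 and 19.0 (4.78 ± 0.65, adjusted p = 0.0217), and AT2G03020 had 218, 299.8, 362 and 171 against 82.0, 73.1, 68.8 and 67.7 (1.78 ± 0.25, adjusted p = 0.0104). In each the genotypes were clearly apart, and the wt values of AT2G03020 were the closest to each other.

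The counts of all 3 were highest after heat. AT4G16550 was at 0 in every library at 21 °C, and AT2G03020 was at 7.09 or below. AT4G16540 was at 4.67, 96.3 and 53.9 in *poliv* at 21 °C and at 0 to 18.02 in wt, which overlap. In heat-stressed *ddm1* their means were 220.5 for AT4G16540, 97.5 for AT4G16550 and 185 for AT2G03020, between wt and *poliv*, and only AT4G16540 was called there, among 1.54% of genes called higher (log2 fold change 2.71, limma, adjusted p = 0.00245). In stem cell nuclei after heat, the highest *poliv* values of these genes were 33.8, 17.99 and 51.0, with medians of 0.473, 0 and 11.2. The wt libraries of these nuclei had at most 22, 2 and 42 reads before normalization. Nuclei and seedlings were read with different versions of the protocol, so that their levels cannot be compared directly.

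The 250 bases before the annotated start of AT4G16540 are shown because they hold a heat shock core, which AT4G16550 and AT2G03020 lacked in the same window. The window lies on the minus strand at chr4:9317263-9317512 (TAIR10.1), with the match to TTCNNGAA in capitals:
AT4G16540: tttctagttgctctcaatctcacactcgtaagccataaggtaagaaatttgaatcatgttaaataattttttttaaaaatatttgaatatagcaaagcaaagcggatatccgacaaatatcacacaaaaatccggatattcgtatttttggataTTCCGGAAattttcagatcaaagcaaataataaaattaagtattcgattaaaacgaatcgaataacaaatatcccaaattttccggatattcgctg
A match to TTCNNGAA was in 7.68% of 27443 windows of this length before annotated genes, one to GAANNTTC in 9.55%, and one to either in 16.1%. Both letter strings are palindromic, so that either strand gives the same matches. Of the genes called higher, 1 of 10 held TTCNNGAA, and of those called lower, 1 of 7, AT4G13505. HSP20 genes that were not called were not looked at singly. A match is only a match of letters, and its absence says nothing of a factor.

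AT4G16540 and AT4G16550 lie 4.2 kb apart on chromosome 4, and the zinc finger gene AT4G16460 lies near them. This was noticed after the values were seen. The stretch of 38.4 kb from AT4G16460 to AT4G16550 has 15 annotated loci. Of these, 10 were tested and 3 were called higher, against 0.0625% of all genes. The other 7 were not called, with log2 fold changes from -0.48 to 0.89. The stretch was drawn to start and end at called genes, so that its count of calls was in part set by this choice. AT4G16460 (CCCH-type) had 24.1, 41.6, 31.2 and 18.8 normalized counts in *poliv* and 1.38, 1.03, 2.04 and 2.03 in wt (3.47 ± 0.41, limma, adjusted p = 0.00212). It stood at 0 to 1.56 at 21 °C.

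The HSP20 counts carry limits of counting. AT4G16540 overlaps AT4G16535 on the opposite strand over 2171 bases, and the use of strand is not stated, so that reads of these genes cannot be told apart. All 50-base words of AT4G16550 occurred elsewhere in the genome, and 96.3% of them in the neighbouring AT4G16560, which was at 2.82 or below in every HT7 library of either genotype. Reads of this pair may have been divided in a way that the sources used here do not give.

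The other 6 genes higher in *poliv* have no role in heat that the annotation names. AT4G04223, a noncoding RNA, had 156, 95.7, 50.7 and 75.1 normalized counts in *poliv* and 2.07, 0, 0.681 and 2.71 in wt (5.39 ± 0.48, limma, adjusted p = 0.000164), and 66.4% of its 50-base words occurred elsewhere. AT5G24240, annotated as a phosphatidylinositol 4-kinase gamma-like protein, had 39.2, 66.8, 32.6 and 35.7 against 0, 0, 0.681 and 0 (5.23 ± 0.45, adjusted p = 0.000141). In both the wt level after heat was that of a few reads. At 21 °C, before normalization, AT4G04223 had 155, 184 and 107 reads in *poliv* and 12, 0, 1 and 7 in wt. AT5G24240 had 13, 17 and 23 reads in *poliv* there and 0 in all 4 wt libraries. The genotypes were thus apart without heat too, although neither gene was called at 21 °C.

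AT2G01422, another noncoding RNA, had 30.2, 21.5, 40.6 and 17.84 against 0, 3.09, 0 and 0.677 (4.07 ± 0.56, limma, adjusted p = 0.00894). It was the gene of this group that was also called at 21 °C, where *poliv* had 68.5, 113 and 111 and all wt libraries had 0 (log2 fold change 6.58, adjusted p = 0.00036). AT1G18940, a nodulin-like transporter of the major facilitator superfamily, changed by 3.76 ± 0.60 (adjusted p = 0.0222), and *FLOT1*, a flotillin of membrane microdomains, by 3.57 ± 0.60 (adjusted p = 0.0315). AT1G19396, an uncharacterized protein, changed by 1.25 ± 0.20 (adjusted p = 0.0222), with 122 to 148 normalized counts in *poliv* and 48.7 to 61.3 in wt, and overlaps AT1G19394 and AT1G19397 on the same strand, neither of which was called.

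Of the 7 genes lower in *poliv*, *MRD1* (AT1G53480) had the smallest adjusted p. Its expression is known to depend on DNA methylation. It had 13.1, 24.5, 18.8 and 21.6 normalized counts in *poliv* and 156, 183, 108 and 147 in wt (-2.88 ± 0.26, limma, adjusted p = 0.000178). The gap was present at 21 °C, with 18.7, 40.4 and 22.7 against 296 to 478 (-3.77, adjusted p = 4.78e-05), and in stem cell nuclei after heat (-2.96, adjusted p = 0.00311). In heat-stressed *ddm1* seedlings the same gene moved the other way, with a mean of 570.2 (1.94, adjusted p = 4.63e-05). *MRD1* overlaps AT1G53490 on the opposite strand over 1446 bases, and AT1G53490 was not called.

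AT1G24881, which encodes an F-box protein, a class of substrate receptors of ubiquitin ligases, had 61.2, 157, 129.8 and 150.2 normalized counts in *poliv* and 409, 461, 417 and 382 in wt (-1.82 ± 0.29, limma, adjusted p = 0.0222). It was lower at 21 °C (-2.82, adjusted p = 0.0385), and in stem cell nuclei it was at 0 in all 8 *poliv* libraries, where wt had a median of 158. All its 50-base words occurred elsewhere, in 6 other annotated loci, so that its reads cannot be assigned to 1 locus with certainty. Of these loci AT1G25211 and AT1G25220 were also tested, and neither was called. AT1G25211, which holds 86.1% of the words, had 9.42 to 68.3 in *poliv* and 146 to 183 in wt (-2.53, adjusted p = 0.101), and AT1G25220, which holds 2.13%, had 112 to 128 and 98.9 to 165 (-0.04, adjusted p = 0.945).

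AT4G13505, a long noncoding RNA, was at 0 in all *poliv* libraries and at 17.9, 57.6, 9.53 and 7.45 in wt, at least 40.5-fold lower by a floor of 3 reads over the 4 *poliv* libraries. At 21 °C the genotypes overlapped, with 11.3 to 48.2 in *poliv* and 0 to 50.5 in wt. It lies over 1709 bases on the opposite strand of the gene AT4G13510, whose own counts were 28.3 to 50.2 in *poliv* and 63.3 to 205 in wt (-1.44, limma, adjusted p = 0.207). Without a stated strand, their reads cannot be told apart.

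The remaining 4 genes were lower after heat and were not called at 21 °C. AT5G39080, an acyltransferase of the HXXXD type, had 37.8, 43.8, 23.9 and 33.8 against 201, 334, 93.3 and 112 (-2.23 ± 0.37, limma, adjusted p = 0.0322), and at 21 °C it had 239.7 to 302 in *poliv* and 240.0 to 387 in wt. *MEE14*, named for arrest of embryos, changed by -1.78 ± 0.29, AT3G49160 of the pyruvate kinase family by -1.63 ± 0.25 and the WD repeat gene AT1G73090 by -1.48 ± 0.25 (SE), with adjusted p from 0.0206 to 0.0324. None of these 4 was called in the fit of the difference between heat effects, where 0.0118% of genes were higher and 0.0236% lower, so that a dependence of the gap on heat was not shown for them.

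**Figure D3:**
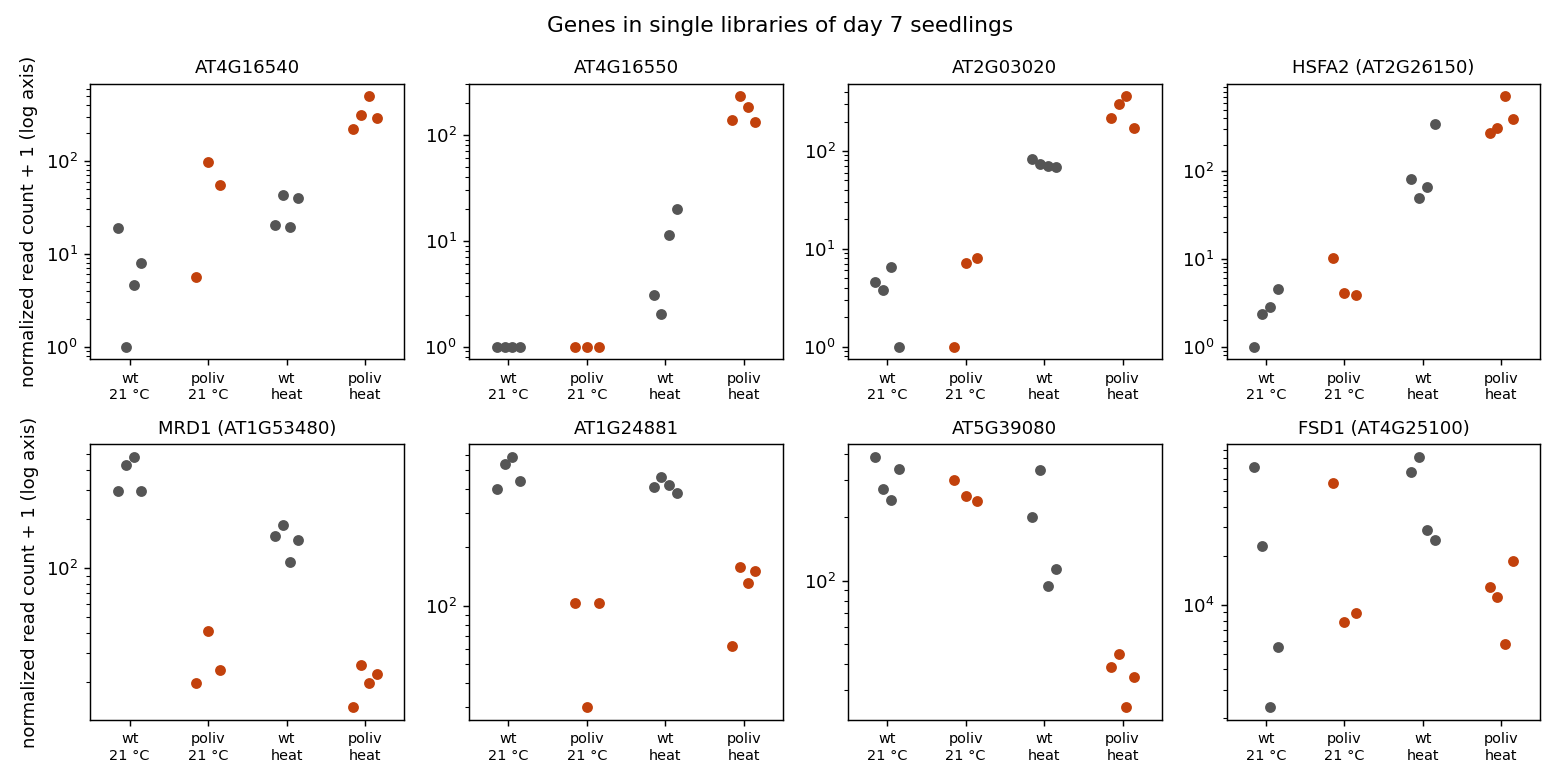
Normalized read counts plus 1 (y axes, log scale) of 8 genes in single libraries of day 7 seedlings, wt in grey and poliv in orange, at 21 °C and after heat. The HSP20 genes AT4G16540, AT4G16550 and AT2G03020 are highest in heated poliv; HSFA2 has 1 wt library, replicate 4, within the range of poliv; MRD1 and AT1G24881 are lower in poliv at both temperatures; AT5G39080 is lower in poliv after heat; FSD1 varies from 2338 to 70647 within wt at 21 °C.

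Seen across the other sets, part of the 38 features differed between the genotypes without heat. Of them, 7 higher and 2 lower features were called in the same direction in CT7, where 27 features were called in all, 18 were tested and not called, and 11 had counts too low to be tested. The 6 TEs among these were AT3TE65015, AT2TE06405, AT4TE44990, AT4TE27915, AT1TE93275 and AT1TE21210, and the 3 genes were AT2G01422, *MRD1* and AT1G24881. In CT7, 0.0481% of genes and 6.86% of TEs were called higher and 0.0301% of genes lower. In heat-stressed stem cell nuclei (HS7), 12 of the 38 were called in the same direction, among 53 called there, with 20 tested and not called and 6 not tested. These were 10 TEs, 4 of them *ONSEN* copies, and the genes *MRD1* and AT1G24881, against 3.61% of TEs called higher and 0.0908% of genes called lower. The difference between heat effects was called by limma for 1 of the 38, AT1TE71045. Other settings called 0 of the 38 (edgeR) to 3, with 2 by DESeq2 (among 69 called) and 3 with a pseudocount of 5 (among 14 called). For the others the main limma fit did not show that the gap after heat differed from the gap at 21 °C. AT4G16550, AT1TE51360 and AT5TE64600 were at 0 in all 21 °C libraries of both genotypes. For these the difference in that fit was the gap after heat itself.

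**Figure D4:**
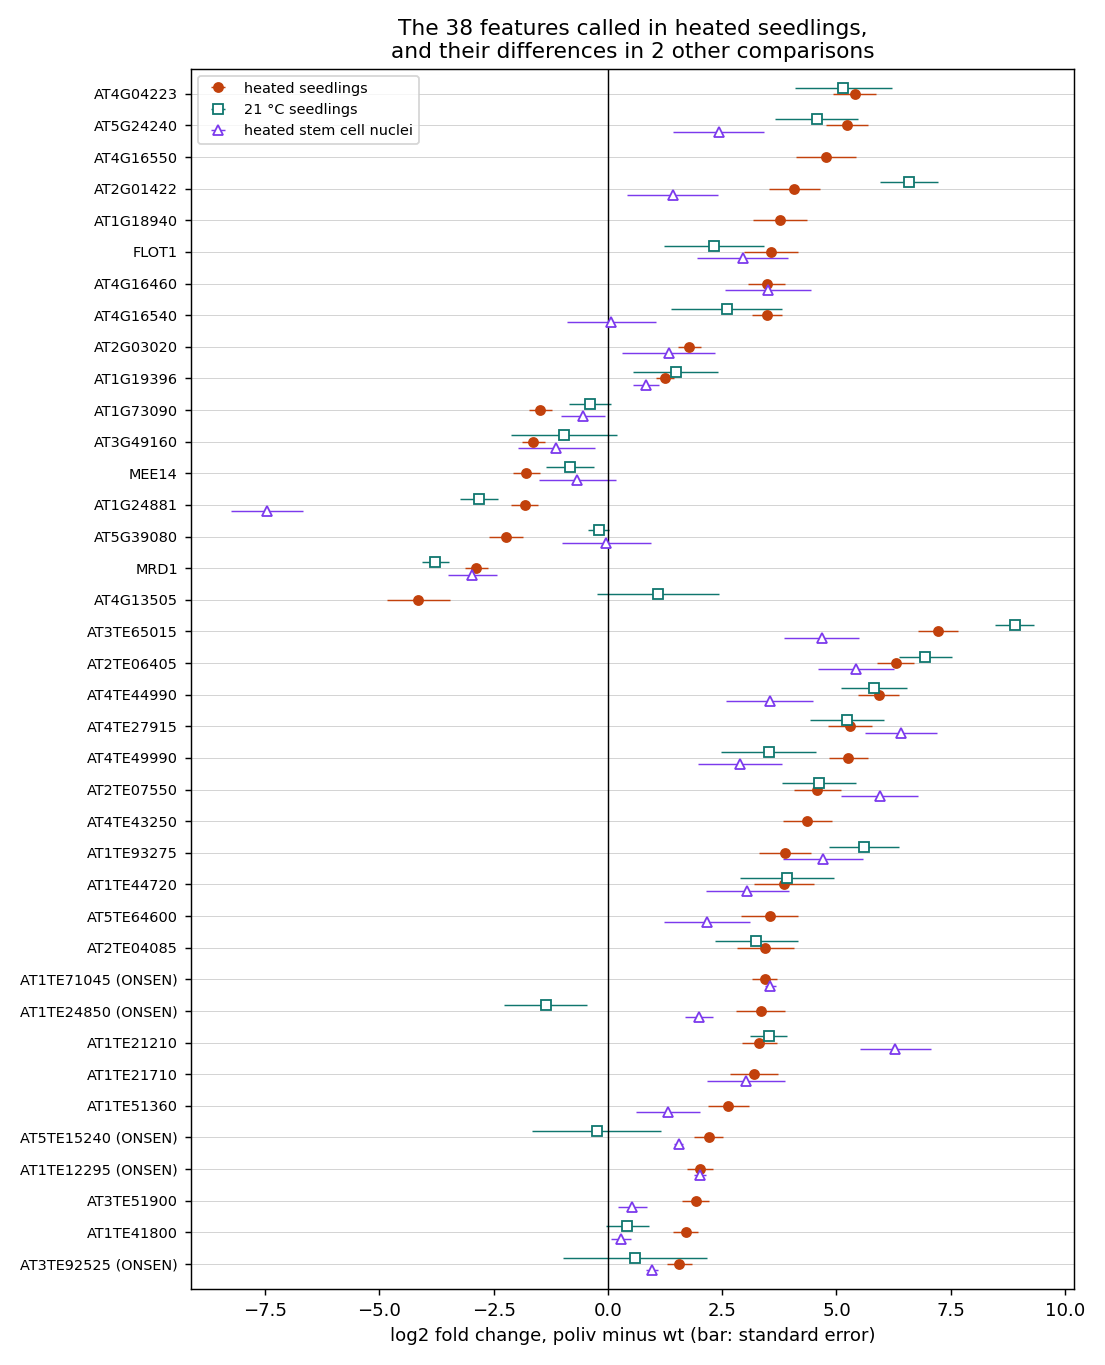
Log2 fold change of poliv minus wt (x axis, bars are the SE) for the 38 features called in heat-stressed seedlings (filled circles), with the same features in 21 °C seedlings (squares) and in heat-stressed stem cell nuclei (triangles) where tested. After heat all 21 TEs and 10 genes of the seedlings are above 0 and 7 genes below; MRD1 and AT1G24881 are below 0 in all 3 sets.

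The wider lists of genes around heat and silencing gave few calls with limma, edgeR or DESeq2. Of 36 heat shock proteins and co-chaperones tested, 0 were called, against 0.0625% of genes higher. At an unadjusted p under 0.05, 9 of the 36 were higher and 0 were lower, where 6.97% of all genes were higher and 6.83% lower, and 28 had a positive log2 fold change, with a median of 0.45 against 0.00 over all genes. *HSP17.8-CI* had the highest value of the list, 1.66 (limma, adjusted p = 0.221), and *HSP15.4* the lowest, -0.71 (adjusted p = 0.603). *HSP101*, the chaperone needed for acquired heat tolerance, had 1895, 2035, 2852 and 2433 normalized counts in *poliv* and 1051, 833, 1164 and 2958 in wt, a log2 difference of 0.79 (adjusted p = 0.345), with wt replicate 4 above all *poliv* libraries.

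Of 20 HSFs and partners, 0 were called, 5 were higher and 0 lower at an unadjusted p under 0.05, against 6.97% and 6.83% of all genes, and the median was 0.22. *HSFA2*, an HSF that prolongs the heat response, had 270.1, 309, 714 and 387 in *poliv* and 79.2, 48.4, 65.4 and 344 in wt (2.001 ± 0.58, limma, adjusted p = 0.239). Here wt replicate 4 lay within the range of *poliv*, whereas the other wt libraries lay below it. *HSFA5* had the lowest value, -0.50. With edgeR and with DESeq2, 0 genes of the lists of heat shock proteins, HSFs, RdDM, methylation maintenance and other small RNA genes were called. Of all genes, edgeR called 0.0625% higher and 0.0375% lower, and DESeq2 0.699% and 0.643%.

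In the PolIV and RdDM pathway, 0 of 27 genes were called, against 0.0625% of all genes higher and 0.0437% lower. At an unadjusted p under 0.05, 0 were higher and 2 lower, against 6.97% and 6.83% of all genes, and the median was 0.07. *NRPD1* had the highest value (0.83) and *AGO4*, the Argonaute that binds 24-nt small RNAs, the lowest (-0.98, limma, adjusted p = 0.308). None of 13 genes of DNA methylation maintenance and demethylation was called, from *IDM1*, a histone acetyltransferase that aids demethylation (-0.44), to *DDM1* (0.37), and the same held for 11 other small RNA genes, from *AGO1* (-0.74) to *AGO7* (0.26). The demethylase gene *ROS1*, whose expression is known to depend on RdDM, was at 3.71 to 7.51 in *poliv* and 2.71 to 8.96 in wt (0.13, adjusted p = 0.92), too few counts to show a small difference. Among 6 genes known for control by DNA methylation, *MRD1* was called lower, *FAMA* had the highest value (0.41), and the F-box gene *SDC* was not called (0.02, adjusted p = 0.991). At an unadjusted p under 0.05, 0 of the 13, 1 of the 11 and 2 of the 6 genes of these lists were lower, and 0 were higher in each.

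No gene of the lists for reactive oxygen, defence, senescence, photosynthesis and the clock was called with limma or edgeR. At an unadjusted p under 0.05 in limma, 2 of 12 reactive oxygen genes were higher and 1 lower, 2 of 11 defence genes higher and 1 lower, 1 of 4 senescence genes lower and 1 of 8 clock genes higher, against 6.97% of all genes higher and 6.83% lower. DESeq2 called *ZAT12* and *BAP1* higher and *FSD1* and *SEN1* lower, where it called 0.699% of all genes higher and 0.643% lower. Of the reactive oxygen genes, *FSD1*, the iron superoxide dismutase of chloroplasts, had 12948, 11138, 5766 and 18559 in *poliv* and 66181, 81607, 29015 and 25274 in wt (-2.001 ± 0.45, limma, adjusted p = 0.16). The genotypes did not overlap after heat, yet at 21 °C wt ranged from 2338 to 70647, and *FSD1* was called lower without wt replicate 3. *ZAT12*, a zinc finger gene of oxidative stress, had 192, 233, 1503 and 962 against 73.0, 83.4, 235 and 114 (2.15 ± 0.70, adjusted p = 0.273). Its *poliv* libraries fell into a lower pair, replicates 1 and 2, and a higher pair. The same pairs were apart in *LHCB1.1* of the photosynthesis list, with 13601 and 10209 against 49291 and 51384 reads before normalization. In *RBCS1A* of that list they overlapped, with 433013 and 291021 against 395621 and 459741. The reason for the split was not tested.

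Of 21 defence genes 11 were tested, with a median of 0.71, from *ICS1*, which makes salicylic acid (-1.14), to its regulator *SARD1* (1.87), and *PR1* was at 0 in all 8 libraries. In the senescence list 4 of 9 were tested, from *SEN1* (-1.49, limma, adjusted p = 0.185) to *PAO* (0.28). The 32 photosynthesis genes ran from *LHCB2.2* (-0.53) to *LHCB1.1* (0.96) around a median of 0.05, and the 8 clock genes from *GI* (-0.47) to *LUX* (0.84). Of 13 commonly used reference genes 0 were called, with a median of -0.05. Without wt replicate 3, no list other than reactive oxygen, methylation-controlled genes, *ONSEN* and heat-induced TEs had a called member.

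**Figure D5:**
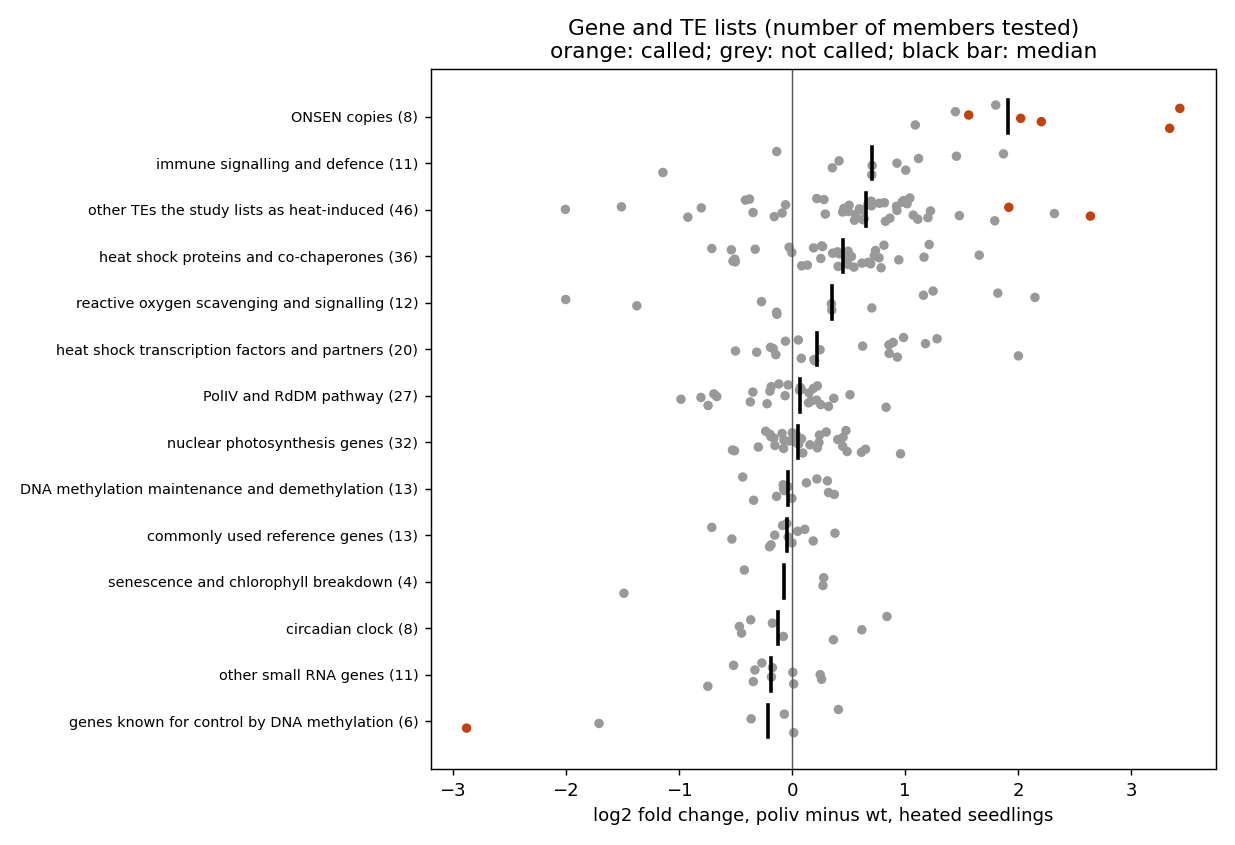
Log2 fold change of poliv minus wt in heat-stressed seedlings (x axis) for the members of each gene or TE list with at least 4 members tested (y axis, number tested in brackets). Points are genes or TEs, orange where called, and black bars are medians. ONSEN copies have the highest median, 1.91, and all are above 0, whereas RdDM and photosynthesis genes centre near 0.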

How the data were processed

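mRNA was read with Smart-seq v2 from seedling tissue, and with another version of Smart-seq from bulks of sorted day 7 stem cell nuclei. The authors ran the nextflow rnaseq pipeline (21.02.0) with clipping, counted reads over the genes and TEs of TAIR10 (leaving out TE genes) and deposited a signal, the DESeq2-normalized count (bedtools 2.27 is also named in the submitters' processing notes). The aligner, the handling of reads with several matches and the strand setting are not given in the sources used here. Dividing by the value of 1 read gave whole numbers, within 0.1, for 100% of values, and these recovered reads served for edgeR and DESeq2. The table's 52 columns of the authors' means and SDs were not used.

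Tests used limma 3.58.1 in R 4.3.3 (lmFit, then eBayes with its trend and robust options) for log2(normalized count + 1), on the libraries of the groups compared, and kept features whose mean was 5 or more. P-values were adjusted by Benjamini-Hochberg over all features and called below 0.05 with a log2 fold change beyond 1. The scripts were tested on simulated data. Alternatives were edgeR 4.0.16, DESeq2 1.42.0, TMM factors, another pseudocount, no filter, all seedling libraries in a fit, library weights, a replicate block and leaving out each library. All called features are named, with the ONSEN copies, a few preset genes and the extremes of each list. The members and lists were chosen with earlier results of these data known. A tag in the labels gives another tissue than the titles for the seedling samples, and the titles were followed. Shares of 50-base words and promoter matches were computed from the RefSeq genome and annotation (TAIR10.1).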

Additional observations from a re-analysis of the deposited data

Results flagged for a closer look

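In groups of 4 libraries, 1 library stood apart from the other 3, by a gap to its nearest neighbour above Dixon's critical share of the range, in 7 of 93 groups. How many groups chance alone would flag was not tested. The groups are counts, some near 0, of features chosen in part for their calls, and they are not independent. The lowest library was apart for AT1TE51360 (17.5 in wt replicate 2) and AT1TE71045 (78458 in *poliv* replicate 2). The highest library was apart for AT4TE27915 (2.07 in wt replicate 1), AT5G24240 (0.681 in wt replicate 3), AT5TE64600 (40.4 in *poliv* replicate 4), and for *HSP101* (2958) and *HSFA2* (344), both in wt replicate 4. The values of AT4TE27915 and AT5G24240 are a few reads at most against 0. In a fit of both temperatures, the heat effect on AT1TE71045 was larger in *poliv* than in wt by 3.43 on the log2 scale.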

How the results depend on the processing

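Both the counts of calls and the features called depended on the setting, and 13 of the 38 features were called under every other setting. For heat-stressed seedlings, in the order genes higher, genes lower and TEs lower, DESeq2 gave 112, 103 and 2, all seedling libraries in 1 fit 26, 25 and 3, library weights 55, 60 and 3, and the replicate block 56, 41 and 3, DESeq2 also gave 43 TEs higher, and without the filter 1 TE was lower. Shared with the 38 features were 33 of the 34 called by edgeR, 38 of the 263 by DESeq2, 29 of the 85 with all seedling libraries, 37 of the 145 with weights, 35 of the 36 with a pseudocount of 5 and 38 of the 128 with the replicate block. Whether the replicate numbers pair the samples is not stated in the sources used here. Same-numbered libraries had deviations correlated by 0.143, 0.0713, 0.213 and -0.254, and differently numbered ones by -0.345 to 0.364. These correlations cannot decide it, since they do not show how the plants were grown or harvested. At 21 °C, genes called were 58 (DESeq2), 31 (all seedling libraries) and 29 (weights), TEs 24, 24 and, with the block, 8, and features called as in heat 14 (DESeq2) and 15 (all libraries). For the difference of heat effects, genes called were 0 (edgeR), 64 (DESeq2) and 18 (weights), and TEs 5 (pseudocount of 5) and 0 (edgeR). Leaving out 1 library gave 6 to 167 genes higher, 1 to 91 lower, 11 to 33 TEs higher and 0 to 3 lower, at 21 °C 6 to 56 genes (56 without wt replicate 3), 4 to 16 TEs and 3 to 9 features called as in heat, 12 to 13 features called as in stem cell nuclei, and 2 to 29 genes (29 without wt HT7 replicate 3) and 2 to 4 TEs for heat effects. The differences ranged from 2.101 to 4.86 normalized counts for *NRPD1*, 4.21 to 4.90 points for the share of TEs and 1.69 to 2.06 (log2) for *ONSEN*. Directions turned for *ROS1* (-0.0899 with weights, -0.11 to 0.37 with 1 library left out) and *SDC* (-0.26 with weights, -0.34 to 0.23 with 1 library left out), neither of which was called. The causes were not tested. Of the values of single features under alternatives, 631 kept direction and side of the threshold, 130 lost it, 12 gained it and 7 turned. Low counts limit the TEs and genes near 0 in wt, where 1 read moves the log2 fold change.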

Other observations

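Some features were high in *poliv* at 21 °C and near 0 in both genotypes after heat, the opposite of *ONSEN*. These were called for the difference of heat effects between *poliv* and wt, in a fit where 0.0236% of genes and 0.573% of TEs were called in this direction. AT4TE09845 had 576, 369 and 398 normalized counts in *poliv* at 21 °C, 0 in all 4 wt libraries there, and 2.97 or below after heat in either genotype (difference of log2 fold changes -8.44, limma, adjusted p = 7.54e-05). AT3G29639, an uncharacterized protein gene, had 146, 188 and 164 against 0 at 21 °C, and at most 7.20 after heat (-8.01, adjusted p = 0.00081). AT5G35480, also uncharacterized, had 733, 513 and 399.9 against 12.7 to 16.2 at 21 °C and at most 2.90 after heat (-4.50, adjusted p = 0.0157). AT5TE35950 had 168, 753 and 512 against 0 at 21 °C, and in contrast to these 19.2 to 135 in *poliv* after heat (-5.70, adjusted p = 0.0351).

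AT1G59920, of the MADS-box family, had 43.6, 15.5 and 32.6 against 0 at 21 °C and at most 1.03 after heat (-5.12, limma, adjusted p = 0.0427). The difference was also called for *KELP* (AT4G10920), a transcriptional coactivator (-1.86, adjusted p = 0.0441), which had 520.4 to 829.6 in *poliv* and 174 to 220.0 in wt at 21 °C and overlapped after heat. Calmodulin gene *CAM9* (AT3G51920) had 385 to 436 in *poliv* and 624 to 1171 in wt at 21 °C, and 36.6 to 67.4 against 14.9 to 32.0 after heat (2.18, limma, adjusted p = 0.0441). The order of these ranges turned with the temperature, but the gap after heat was not called by itself, so that a reversal was not shown. On recovered reads, edgeR called 0 features for this difference and DESeq2 69.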
